A study of Mus musculus with 11 samples.

Results

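The 1259 cells described here are lung endothelial barcodes from mouse lungs that carried UMIs (unique molecular identifiers, counts of RNA molecules) of Gja5, Gja4 or Bmx. They were chosen by UMI counts among 69267 barcodes that passed a filter of 1000 to 30000 UMIs and at most 14% mitochondrial UMIs, out of 81983 in all. A cell was a member when it held at least 2 UMIs of Gja5, Gja4 and Bmx together, at least 1 of the endothelial genes Cldn5 and Cdh5, at most 2 of the capillary genes Car4 and Ednrb, and none of the leukocyte gene Ptprc. Whole lungs were dissociated enzymatically without a cell sort and run by droplet 3′ single-cell RNA sequencing in 11 libraries. The wild-type group WT (+/+) had 1 library of age 18 months. The p21Het group (p21 +/-) had 3 libraries aged 18 months, or 19 in p21Het_1. The p21mTert group (p21 +/mTert) had 5 libraries aged 18 months, or 20 in p21mTert_1. The p21mTertCD group (p21 +/mTertCD) had 2 libraries of 18 months. WT gave 71 members. The p21Het libraries, numbered from _1, gave 94, 152 and 65 members, those of p21mTert 78, 150, 161, 196 and 113, and those of p21mTertCD 66 and 113. The study's title speaks of mTert induction in p21-positive cells, and the genotype labels place mTert and mTertCD at p21. The 3 p21 groups thus shared a single unmodified p21 allele and differed in the other one, and WT, with both, entered no test. The labels do not spell out CD, and they do not say whether each library came from 1 animal, so p-values measure the spread between these libraries only.

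Arterial endothelial cells line the arteries and are joined by gap junctions. Gja5 and Gja4 encode connexins, the gap junction subunits of arterial endothelium, and Bmx encodes a tyrosine kinase known from arterial endothelium and endocardium. Arterial identity is set by Notch ligands and receptors and by SOX transcription factors, and the wall beneath the cells is rich in elastin. In GRCm38 (GENCODE M21), Gja5 lies on chromosome 3 from 96904693 to 97077416 on the plus strand, Gja4 on chromosome 4 from 127311421 to 127314039 on the minus strand and Bmx on chromosome X from 164192842 to 164258193 on the minus strand. The p21 protein, an inhibitor of the cell cycle induced by stress and in senescence, is encoded by Cdkn1a on chromosome 17 from 29090976 to 29100727 on the plus strand. Tert, the catalytic subunit of telomerase, is encoded on chromosome 13 from 73626911 to 73649843 on the plus strand.

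Most of the selected cells were chosen by Gja4 alone. Of the 1259, 1102 (87.5%) had a Gja4 UMI, 381 (30.3%) a Bmx UMI and 295 (23.4%) a Gja5 UMI. Gja4 alone selected 750 cells, and 118 cells had UMIs of all 3 genes. The other 509 cells (40.4%) had a Gja5 or Bmx UMI, a split made after the data were seen. Cells with Gja4 alone had a median of 4100 UMIs, against 5622 in the others. Which rule gene chose a cell does not test its label. Genes outside the rule differed between these subsets, as given next, and the members are called Gja5/Gja4/Bmx-selected cells, or selected cells, throughout.

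Of the 14 arterial marker genes outside the rule, 5 were higher in all 11 libraries in the cells with a Gja5 or Bmx UMI than in those with Gja4 alone, 1 was lower in all 11, and the other 8 were mixed. Mgp, an inhibitor of vascular calcification that is abundant in large vessels, was at 2268 to 6963 CPM (the gene's UMIs, summed over the cells of a library and scaled to the same total in each) over the 11 libraries in the cells with a Gja5 or Bmx UMI. In the cells with Gja4 alone it was at 0 to 829 CPM, and the library ranges did not overlap. The median ratio between the subsets was 5.36 on the log2(CPM + 10) scale, and the ratio was above 0 in 11 of 11 libraries. The genes named from here on in this comparison were chosen after their values were seen. The elastic fibre genes Fbln2 (median log2 ratio 2.81), Fbln5 (2.07) and Ltbp4 (2.64), the cadherin gene Cdh13 (3.18), the protease gene Htra1 (2.90) and the Notch ligand gene Dll4 (1.25) were likewise higher in 11 of 11 libraries in the subset with Gja5 or Bmx. Eln, which encodes elastin, had a median log2 ratio of 1.30 and was higher in 10 of 11 libraries. Over the whole list of elastic lamina and basement membrane genes, 9 of 25 were higher in all 11 libraries, and the collagen genes Col4a1 (-1.23) and Col4a2 (-1.39) were lower in all 11. Of the 7 general capillary markers, 3 were lower in all 11 libraries with Gja5 or Bmx, while Ptprb (0.43) was higher in 10 and Plvap (0.20) in 6. Gpihbp1, which anchors lipoprotein lipase on capillaries, was at 1112 to 1843 CPM with Gja4 alone and 349 to 1067 CPM with Gja5 or Bmx. Kit, a receptor tyrosine kinase of lung capillaries, had a median log2 ratio of -2.07, and the semaphorin gene Sema3c one of -2.87. Sox17, a transcription factor of arterial specification, was higher with Gja4 alone in 11 of 11 libraries (median log2 ratio -1.04). Both subsets share libraries and were cut from the same counts, so no test is given.

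**Figure D1:**
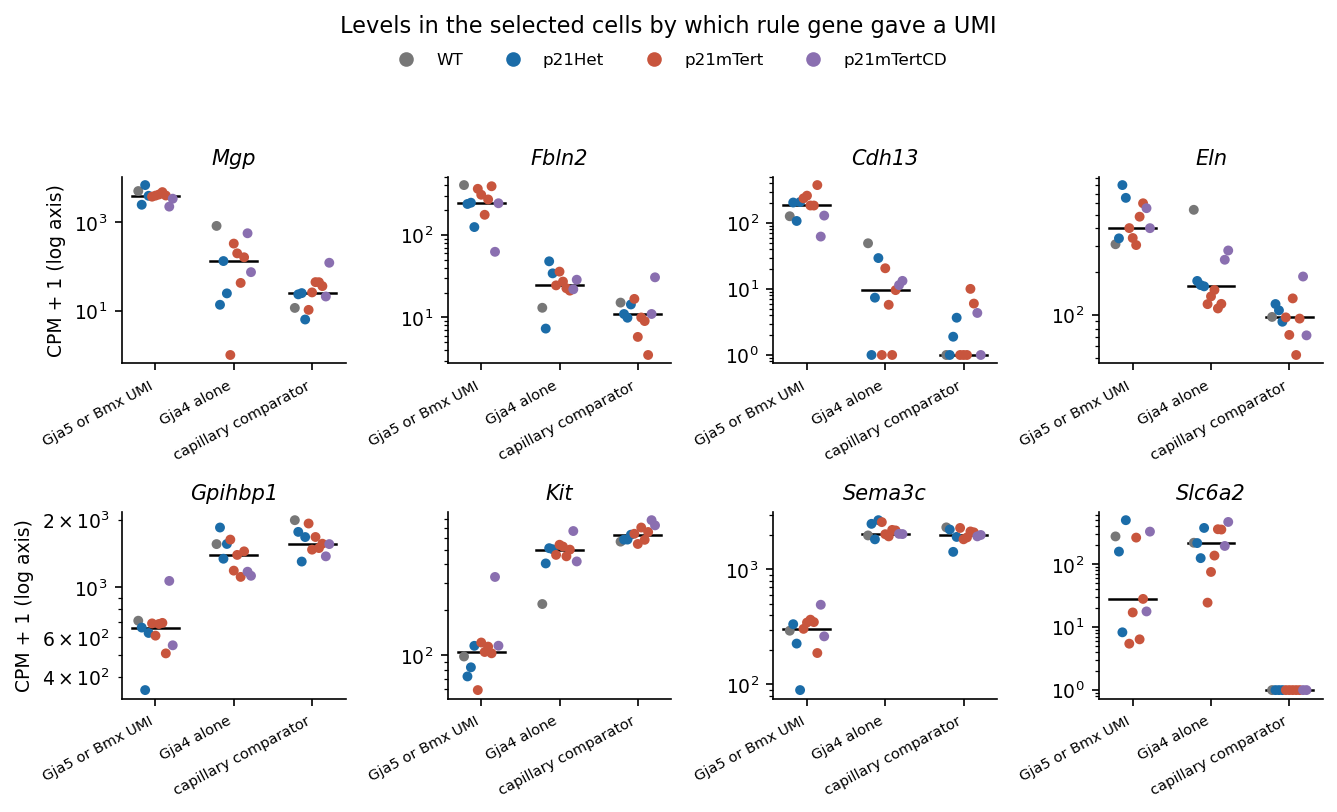
CPM + 1 on a log axis of 8 genes in each of the 11 libraries, for selected cells with a Gja5 or Bmx UMI, selected cells with Gja4 alone and the general capillary comparator. Points are libraries coloured by genotype and bars are medians. For Mgp, Fbln2 and Cdh13 the cells with Gja4 alone lie near the capillary comparator, and for Sema3c they overlap it.

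For Mgp, Fbln2 and Gpihbp1, the clearest step in level lay not at the rule's limit but at 4 or more UMIs of the 3 rule genes. With the other conditions met, 1271 barcodes had exactly 1 UMI of the 3 genes, 566 had 2, 279 had 3 and 414 had 4 or more. Mgp was at 738 ± 566 CPM with 1 UMI (mean ± SD over 11 libraries), 1256 ± 1035 with 2, 866 ± 658 with 3 and 3685 ± 1490.0 with 4 or more. Fbln2 followed at 28.6 ± 13.7, 45.4 ± 25.7, 78.2 ± 71.7 and 271 ± 148 CPM. Gpihbp1 stood at 1176 ± 152 CPM with 1 UMI, 1190.2 ± 177 with 2 and 1169.8 ± 307 with 3, and at 777 ± 235 with 4 or more. For these 3 genes the ranges of mean ± SD overlapped between barcodes just outside the rule and those just inside it. The SD is the spread between libraries and both strata come from the same libraries, so this overlap does not test whether they differ. Other genes moved otherwise. Cxcl12 stood at 1098 ± 334 CPM with 1 UMI, 1392 ± 361 with 2, 1453 ± 558 with 3 and 1688 ± 446 with 4 or more. Sox17 was at 233 ± 46.6, 283 ± 84.3, 284 ± 95.6 and 193 ± 39.9 CPM. Median UMIs per barcode were also higher along this scale, from 3568 with 1 rule UMI to 6158 with 4 or more. The rule's other limits left out 66 barcodes by Car4 and Ednrb, 170 by Ptprc and 264 for want of Cldn5 and Cdh5.

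Leiden clustering of the selected cells, run after the data were seen, gave 7 clusters. The genes Gja5, Gja4, Bmx, Cldn5, Cdh5, Car4, Ednrb and Ptprc and the mitochondrial genes were left out of it. A cluster of 264 cells was led by Olfm2, Fbln2, Map1b, Slc45a4, Adgrg6 and Sulf1, and 5.30% of its cells had Gja4 alone. Its Fbln2 was at 433 CPM against 25.2 CPM in the other selected cells, and its Sema3c at 47.4 CPM against 1633 CPM. Its Mgp was at 5453 CPM, against 46.4 and 51.9 CPM in the 2 largest clusters, 2279 CPM in the cluster led by Slc6a2 and 15254 CPM in that led by Inmt. Fbln5 was at 295 CPM there and 321 CPM in the Slc6a2 cluster. The 2 largest clusters, of 516 and 313 cells, held Gja4 alone in 75.2% and 84.7% of cells. The second of them was led by Prx, Cish, Kit and Sema7a. The first was led by Igkc, haemoglobin genes and Scgb1a1, which are genes of plasma cells, red cells and club cells, and its Sema3c was at 2129.6 CPM against 772 CPM. Another cluster, of 117 cells, was led by the venous genes Slc6a2, Selp and Bst1 beside Fabp4. The remaining 29, 14 and 6 cells were led by the lymphatic genes Ccl21a and Mmrn1, by the fibroblast genes Inmt and Mfap4, and by the B-cell genes Cd79a and Ly6d. Scrublet, a doublet caller, marked 4 of the 14 and 6 of the 6 cells of the last pair. Cells of the Olfm2 and Fbln2 cluster made up 13.2% to 29.5% of the selected cells per library, those of the Slc6a2 cluster 4.67% to 23.1%, and those of the Prx cluster 6.15% to 36.8%. The Slc6a2 share was highest in p21Het_3 (23.1%) and p21mTertCD_2 (20.4%). Clusters are called by their leading genes only, since these genes also built them.

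**Figure D2:**
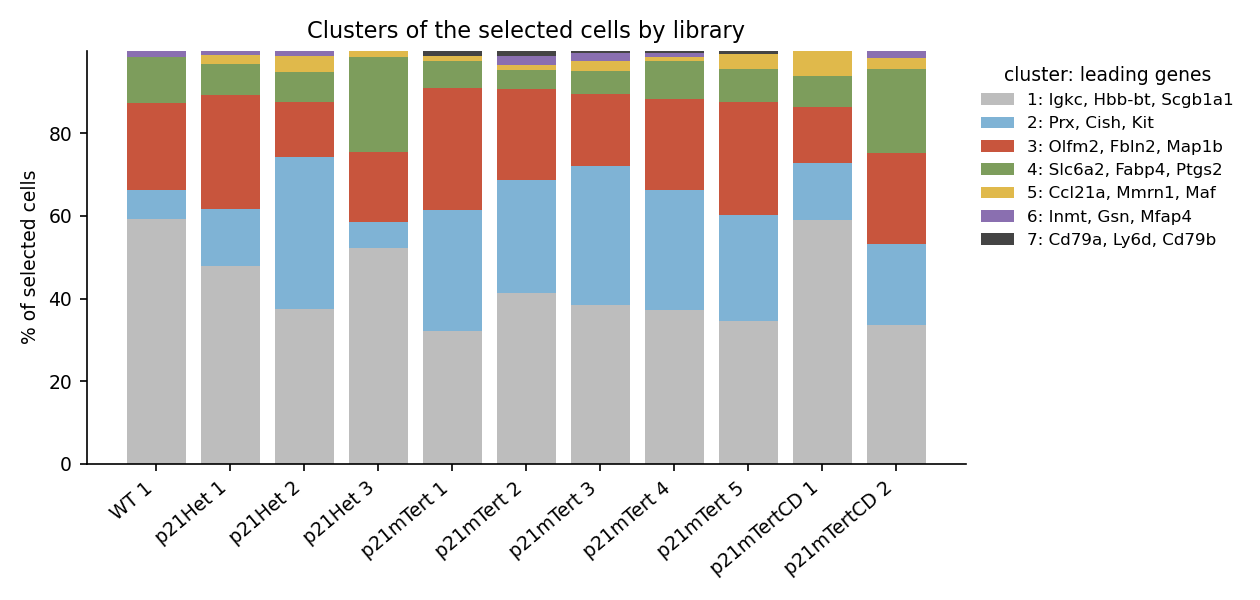
Stacked bars of the percentage of selected cells in each of 7 clusters for the 11 libraries, with the 3 leading genes of each cluster in the legend. The red segment (Olfm2, Fbln2, Map1b) takes 13.2% to 29.5% of each bar, and the green one (Slc6a2, Fabp4, Ptgs2) is highest in p21Het_3.

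The genes highest against a general capillary comparator included genes of matrix and adhesion. Set against a venous comparator, 4 of these 20 were higher in all 11 libraries, 2 were lower in all 11 and 14 were neither. The capillary comparator held 1908 endothelial barcodes with no UMI of Gja5, Gja4 or Bmx, of the venous markers Slc6a2, Bst1 and Selp or of the lymphatic markers Prox1, Mmrn1 and Ccl21a, and at least 2 UMIs of Gpihbp1 and Kit. Of the 20 genes with the highest median ratio, 19 were higher in all 11 libraries and Fabp4 in 10. Mgp led with 2263 against 32.7 CPM on average and a median log2 ratio of 5.64. Matrix and elastic fibre genes followed, with Bgn (biglycan) at a log2 ratio of 4.19, Fbln5 at 3.60, Ltbp4 at 3.14 and Fbln2 at 3.01. Among genes of the cell surface, Vcam1, a leukocyte adhesion molecule, was at 4.12, the adhesion receptor gene Adgrg6 at 3.68, Cdh13 at 3.37 and the selectin gene Sele at 2.78. Others named by the same rule were Cytl1 (4.93), Cpe (4.11), Myof (3.40), Fabp4 (3.36), Atp2b4 (3.00), Ctgf (2.99), Fgl2 (2.99), Rnd1 (2.94), Tagln (2.83) and Ccdc80 (2.74). Sele had no UMI in the comparator, so its ratio rests on the pseudocount. Fabp4 came largely from the Slc6a2-led cluster, where it was at 1224 CPM against 11.7 CPM in the other selected cells. Fgl2 was at 2324 CPM in the cluster led by Ccl21a and Mmrn1, against 59.5 CPM in the other selected cells. Tagln is also on the smooth muscle and pericyte marker list. That list summed to 14.2 to 954 CPM in the selected cells and 9.47 to 30.0 CPM in the capillary comparator. Set against 537 barcodes of the venous comparator, chosen by at least 2 UMIs of Slc6a2, Bst1 and Selp, 4 of the 20 were higher in all 11 libraries. These were Mgp (median log2 ratio 2.17), Fbln2 (3.65), Cdh13 (1.01) and Ccdc80 (0.69). Vcam1 (-1.44) and Bgn (-0.37) were lower in all 11, and Fbln5 (-0.19), Cytl1 (-0.21) and Myof (-0.18) were lower in 7 to 10. Tagln (2.09) and Ltbp4 (0.51) were higher in 10, Adgrg6 (0.56) in 9 and Atp2b4 (0.28) in 8. These values describe the selection, which used the same counts, and carry no test.

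Of the 10 genes lowest against the capillary comparator, 3 were on the alveolar or airway epithelial marker lists. Wfdc2, Cbr2, Sftpd and Hp, not on those lists, are also genes of lung epithelium. The 7 alveolar epithelial markers summed to 1163 to 17129 CPM in the comparator, highest in p21Het_3, against 497 to 1863 CPM in the selected cells. The part of epithelial RNA in the comparator in these ratios was not tested. Sftpc, the surfactant protein gene of alveolar type II cells, had 632 against 4504 CPM and a median log2 ratio of -1.36. Wfdc2 (-2.24), Ager (-1.86), Cbr2 (-1.85), Sftpd (-1.50), Hp (-1.38), Chil1 (-1.34), Sftpa1 (-1.33) and Napsa (-1.31) were lower too, and none of the 10 was lower in every library. Aplnr, the apelin receptor gene of capillaries, was at -1.33 and lower in 10 of 11 libraries. Of the 19 arterial specification genes, 4 were higher than in the comparator in all 11 libraries, 3 were lower in all 11 and 12 were neither. The arterial transcription factor genes went both ways. Mecom (1.83) and the Notch target Hey2 (1.01) were higher in all 11 by their log2 ratios, as was the netrin receptor gene Unc5b (0.54), and Sox18 (0.45) was higher in 10. Sox17 had 239 against 300.3 CPM and was lower in 9 of 11 libraries, and Hey1, also a Notch target, was lower in all 11 (log2 ratio -0.22), as were Epas1 (-0.30) and Tbx3 (-0.31). Efnb2, the ephrin ligand that marks arteries, had a log2 ratio of 0.07 and Dll4 of 0.17, each higher in 8 of 11 libraries. Cxcl12, a chemokine gene of arterial endothelium, was higher in all 11 (log2 ratio 0.47).

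Marker genes of other cells were present in the selected cells at levels that varied between libraries. The 7 venous markers summed to 1704 to 4256 CPM in the selected cells and 513 to 1072 CPM in the capillary comparator, which excluded 3 of them. The 7 general capillary markers summed to 5957 to 8100.2 CPM, against 7407 to 11145 CPM in the comparator. The 6 lymphatic markers (6 of 6 with UMIs) summed to 4053 CPM in p21mTertCD_1, the highest library, and 2766 CPM in p21mTertCD_2, against 1232 to 2825 CPM in p21mTert and 2264 to 2379.5 CPM in p21Het. The cluster led by Ccl21a and Mmrn1 took 6.06% of the selected cells of p21mTertCD_1, its highest share. Airway epithelial markers (4 of 4 with UMIs) ranged from 614 to 23452 CPM, with 23326 CPM of Scgb1a1 in p21Het_1 and 9498 CPM in p21Het_2 against 594 to 3299.8 CPM elsewhere. Erythroid markers (5 of 5) ranged from 44.1 to 14801 CPM, alveolar epithelial markers (7 of 7) from 497 to 1863 CPM, and fibroblast markers (6 of 7, Lum at 0) from 21.6 to 492 CPM. Smooth muscle and pericyte markers (9 of 9) reached 954 CPM in p21mTertCD_1, against 186 CPM in p21mTertCD_2, 14.2 to 266 CPM in p21mTert and 86.9 to 199 CPM in p21Het. Of the leukocyte markers 8 of 9 had UMIs, Ptprc being at 0 by the rule, and their sum ranged from 188 to 489 CPM. Libraries held 42038434 to 85988955 UMIs in all. Selected cells held 339878 to 1204282 UMIs per library, with medians of 3059 to 5363 UMIs per cell. Their median mitochondrial share was 4.88 to 5.69% in the 3 libraries whose titles carry no replicate label (WT_1, p21Het_1 and p21mTert_1) and 3.26 to 3.81% in the other 8. Among the members of different libraries 0 barcode sequences were shared, and 20 member barcodes recurred among the passing barcodes of another library.

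The share of selected cells among endothelial barcodes did not differ detectably between genotypes. The p21Het libraries stood at 16.7%, 14.2% and 22.8%. Those of p21mTert were at 17.3%, 15.8%, 19.6%, 21.2% and 26.1%, and the p21mTertCD pair at 19.6% and 22.8%. WT stood at 18.2% (exact 95% binomial interval 14.5% to 22.4%, counting error only). The groups overlapped, with means of 17.9% ± 4.45 (SD, n = 3), 20.0% ± 3.98 (SD, n = 5) and 21.2% ± 2.26 (SD, n = 2). The difference of p21mTert minus p21Het was 2.13 percentage points (2-sided exact permutation p = 0.5, adjusted over 3 comparisons 0.75). It was -1.17 points for p21mTert minus p21mTertCD (exact permutation p = 0.762) and 3.30 points for p21mTertCD minus p21Het (exact permutation p = 0.5). With 5 and 3 libraries the exact permutation p cannot go below 0.0179, with 5 and 2 below 0.0476, and with 2 and 3 below 0.1. The UMI rule is sensitive to depth, and with every endothelial barcode thinned to 2000 UMIs the means were 10.2% ± 2.03 (SD, n = 3), 10.5% ± 2.45 (SD, n = 5) and 11.4% ± 2.01 (SD, n = 2). Thinning left out 41 to 216 shallower barcodes per library. Within the selected cells, those with a Gja5 or Bmx UMI averaged 37.8% ± 8.63 (SD, n = 3) for p21Het, 41.7% ± 2.18 (SD, n = 5) for p21mTert and 44.0% ± 2.10 (SD, n = 2) for p21mTertCD.

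**Figure D3:**
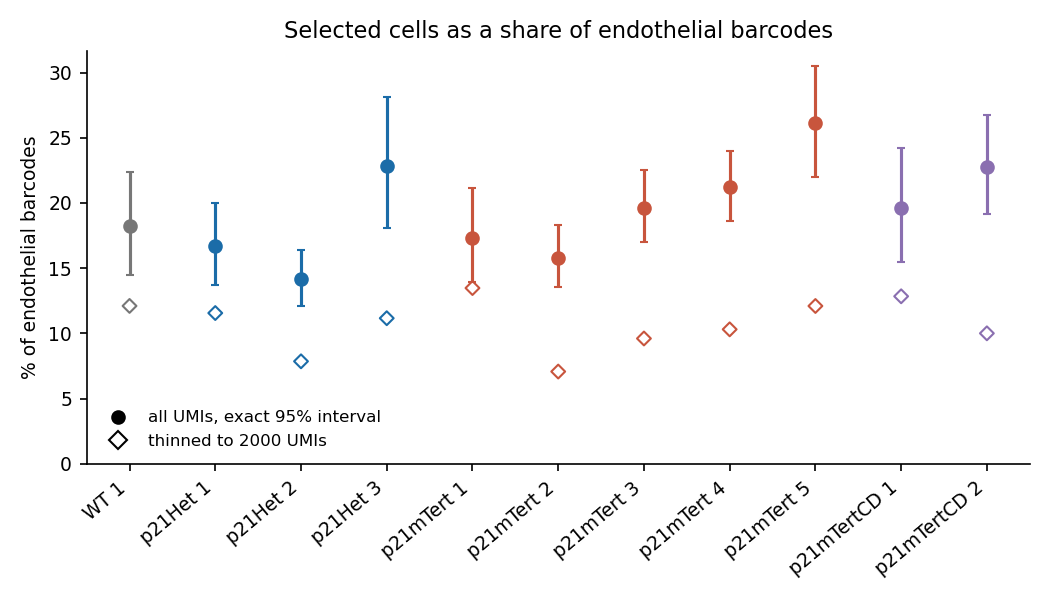
Selected cells as a percentage of endothelial barcodes in each library (filled points, with exact 95% binomial intervals) and after thinning every barcode to 2000 UMIs (open diamonds), coloured by genotype. Shares run from 14.2% in p21Het_2 to 26.1% in p21mTert_5, and the genotypes overlap in both readings.

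Tert was detected in the selected cells of every p21mTert and p21mTertCD library and in none of p21Het or WT. It was at 5.68, 19.9, 12.2, 7.47 and 7.35 CPM in p21mTert, at 2.70 and 5.86 CPM in p21mTertCD, and at 0 in the 3 p21Het libraries and WT. These levels rest on 48 UMIs among 4253463 in p21mTert, 5 among 1052356 in p21mTertCD and 0 among 1756320 in p21Het. A count of 0 allows up to 1.71 CPM in p21Het (3 counts over the group). The summed level was 6.61-fold this ceiling in p21mTert and 2.78-fold in p21mTertCD. These ratios leave out the counting error of the 48 and 5 UMIs and the spread between libraries, so they are not lower bounds. Tert did not pass the count filter of the fit across genes and was tested alone, as log2(CPM + 1), a test added after its counts were seen. The difference of p21mTert minus p21Het was 3.40 (2-sided exact permutation p = 0.0179, the smallest possible, and 0.0536 adjusted over 3 comparisons). The difference of p21mTert minus p21mTertCD was 1.07 (exact permutation p = 0.143). That of p21mTertCD minus p21Het was 2.33 (exact permutation p = 0.1, the smallest possible, and 0.143 adjusted). In the capillary comparator, Tert stood at 1.06 CPM in p21Het, 10.5 in p21mTert and 9.48 in p21mTertCD over the summed UMIs. In the venous comparator it was at 1.31, 7.01 and 8.77 CPM in the same order (1, 11 and 3 UMIs), with 1 UMI in WT. In an aerocyte comparator chosen by Car4 and Ednrb it was at 3.33, 9.22 and 16.0 CPM (3, 22 and 7 UMIs). Cells with a Gja5 or Bmx UMI held Tert at 6.01 to 20.1 CPM in the p21mTert libraries.

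Cdkn1a was present in the selected cells of every library and did not pass the test in any comparison. Its level was 268, 584 and 613 CPM in p21Het, 435, 711, 577, 503 and 482 CPM in p21mTert, 351 and 413 CPM in p21mTertCD and 259 CPM in WT. p21Het_1 lay below its 2 companions and near WT, and the groups p21Het and p21mTert overlapped. The log2 fold change was 0.15 (SE 0.26) for p21mTert minus p21Het, 0.48 (SE 0.31) for p21mTert minus p21mTertCD and -0.33 (SE 0.33) for p21mTertCD minus p21Het in edgeR's quasi-likelihood test. The smallest adjusted p of the 3 was 0.818. In the 8 libraries with replicate labels alone, the first of these differences turned to -0.083. Of the rule genes, Gja5 was at 174, 59.0 and 64.0 CPM in p21Het, 162, 97.4, 95.1, 105 and 171 CPM in p21mTert and 83.8 and 96.7 CPM in p21mTertCD. Gja4 ranged from 331 to 557 CPM and Bmx from 105 to 188 CPM over the 11 libraries, Cldn5 from 2021 to 3352, Cdh5 from 1395 to 1832, Car4 from 16.0 to 62.4 and Ednrb from 0 to 14.7, and since the rule chose the cells on these genes no test is read from them.

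**Figure D4:**
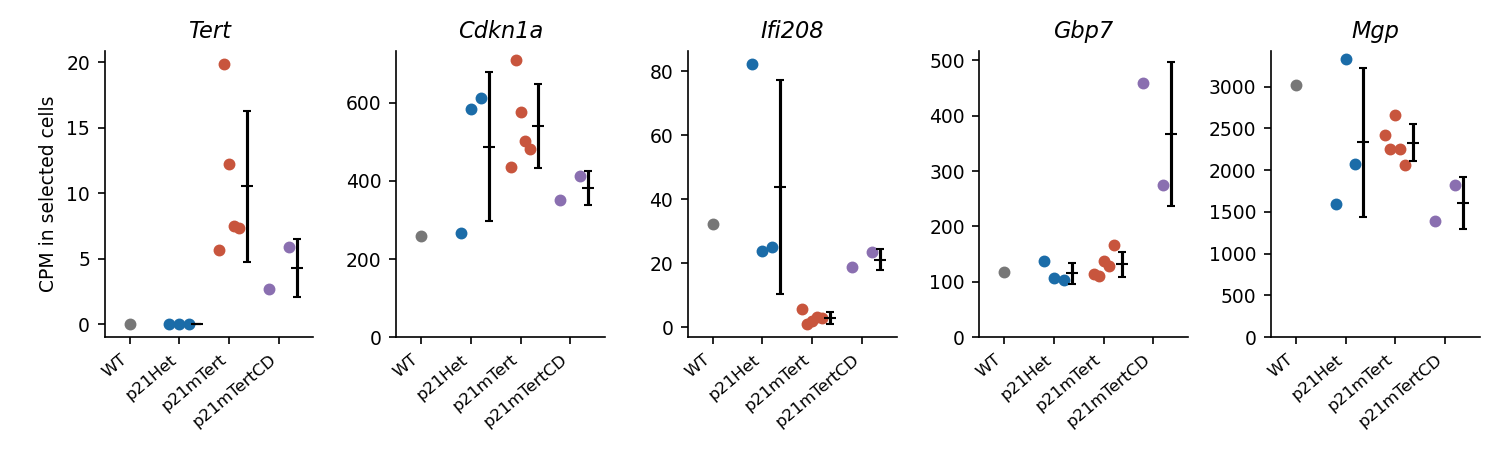
CPM of Tert, Cdkn1a, Ifi208, Gbp7 and Mgp in the selected cells, 1 point per library by genotype, with the group mean and SD in black where a group has over 1 library. Tert is at 0 in all p21Het points, Ifi208 is lower in all 5 p21mTert points than in any other library, and Gbp7 is highest in the 2 p21mTertCD points.

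Across all genes, the comparison of p21mTert with p21Het asked what changed in these cells when the second p21 allele carried mTert. A single gene, Ifi208, passed an adjusted p of 0.05 among 8490 tested (0.0118%), with 405 at an unadjusted p under 0.05. Ifi208 belongs to the interferon-inducible p200 family of DNA-sensing proteins and lies on chromosome 1 from 173673675 to 173698395 on the plus strand. It was at 82.3, 23.8 and 25.2 CPM in p21Het, 5.68, 1.05, 1.88, 3.32 and 2.94 CPM in p21mTert, 18.9 and 23.5 CPM in p21mTertCD and 32.4 CPM in WT. These rest on 68 UMIs in p21Het and 11 in p21mTert. All 5 p21mTert libraries lay below all other libraries. The log2 fold change of p21mTert minus p21Het was -3.88 (SE 0.49, adjusted p = 0.00792 in edgeR), and that of p21mTert minus p21mTertCD was -2.99 (adjusted p = 0.187 in edgeR). DESeq2, and edgeR with the set of libraries as a covariate, called Ifi208 in both comparisons. In the 8 libraries with replicate labels alone, the first was -3.35 (edgeR adjusted p = 0.0326). With members of 3 or more rule UMIs only, it was -3.73 with an adjusted p of 0.141. Ifi208 sits in a cluster of similar genes, and how reads shared between them were counted is not given in the sources used here. In the capillary comparator, Ifi208 was at 70.1, 36.6 and 37.4 CPM in p21Het and 22.1, 3.85, 7.49, 6.03 and 10.0 CPM in p21mTert, with no overlap between the groups. In the venous comparator it had 5, 6 and 1 UMIs in the p21Het libraries, among 765076 in all, and 0 among 1568749 in p21mTert. There the p21mTertCD libraries had 0 and 7, so single libraries are near the floor. In the aerocyte comparator, 757 barcodes chosen by Car4 and Ednrb, the groups overlapped, at 98.0, 46.7 and 112 CPM in p21Het and 74.9, 35.3, 46.8, 31.5 and 80.5 CPM in p21mTert. The log2 difference between the effects on Ifi208 in the selected cells and the capillary comparator was -1.27 (adjusted p = 0.976 in edgeR). The difference from the aerocyte comparator was not tested.

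Over the interferon response list, 18 of 22 tested genes had a positive fold change for p21mTert minus p21Het (median log2 fold change 0.18, against -0.01 over all genes tested), the sign opposite to Ifi208. In edgeR over the 10 libraries no gene was called higher in p21mTert than in p21Het. Gm47283, annotated on chromosome Y, was called higher in DESeq2 and in edgeR with the set of libraries as a covariate. The 5 genes of smallest p on that side were Wdfy1, an endosomal adaptor gene (log2 fold change 1.68, adjusted p = 0.105 in edgeR), Gm47283 (1.76), the focal adhesion gene Zyx (0.87), the retinoic acid receptor gene Rara (0.78) and Sertad1 (0.78). Wdfy1 was at 11.4, 10.2 and 16.0 CPM in p21Het and 54.0, 42.9, 33.0, 31.6 and 42.6 CPM in p21mTert, and the 2 groups did not overlap. Of all genes tested 3.1% had groups that did not overlap in this comparison. On the lower side, Wfdc2, Sftpb, Hp, Sftpd and Spp1 had the smallest p after Ifi208, with adjusted p from 0.125 to 0.176. The first 4 are genes of lung epithelium. Wfdc2 was at 187, 141 and 20.6 CPM in p21Het, and p21Het_1 and p21Het_2, the libraries with the most Scgb1a1, stood far above p21Het_3. Without p21Het_1 the count of called genes was 5, without p21mTert_4 it was 3 (with Wdfy1 and Gm47283 higher), and without p21Het_3 it was 15, with Wdfy1 higher and, among those lower, Wfdc2, Sftpb, Hp, Cyp2f2, Cbr2, Scgb1a1 and Sftpd. The part of free epithelial RNA in these values was not tested, nor was the part of sex in the level of Gm47283.

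The comparisons with p21mTertCD called a gene induced by interferon. Gbp7, which encodes a guanylate-binding GTPase of antimicrobial defence and lies on chromosome 3 from 142530342 to 142550149 on the plus strand, was the single gene called in each of the comparisons with p21mTertCD (0.0118% of 8490 in each). It was at 459 and 276 CPM in p21mTertCD, 137, 107 and 103 in p21Het, 114, 111, 138, 129 and 166 in p21mTert and 118 in WT. Both p21mTertCD libraries lay above all others. The log2 fold change was 1.73 (SE 0.25, adjusted p = 0.0401 in edgeR) for p21mTertCD minus p21Het and -1.52 (SE 0.22, adjusted p = 0.0322) for p21mTert minus p21mTertCD. The 2 comparisons share the p21mTertCD libraries. Without p21mTertCD_1 they came to 1.22 (edgeR adjusted p = 1.00) and -1.01 (edgeR adjusted p = 0.795), while without p21mTertCD_2 there were 25 and 34 genes called. Leaving out any 1 of the p21mTert libraries left 0 genes called in either comparison, with Gbp7 at 1.73 to 1.74 and -1.61 to -1.47, and leaving out p21Het_1 or p21Het_2 left 0 for p21mTertCD minus p21Het and 2 for p21mTert minus p21mTertCD. In the libraries with replicate labels alone, Gbp7 was at 1.80 (edgeR adjusted p = 0.134) and -1.47 (edgeR adjusted p = 0.0517).

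Interferon-induced genes are switched on by transcription factors that bind short motifs near the start of the gene. The 250 bases before the RefSeq start are shown for Gbp7 and Ifi208, the genes called here, and for Igtp, an interferon-inducible GTPase gene with the largest fold change in the list for p21mTertCD minus p21Het (2.28, adjusted p = 0.357 in edgeR). They are written 5′ to 3′ on the plus strand (RefSeq, GRCm38.p6), at chr3:142530086-142530335, chr1:173673415-173673664 and chr11:58199306-58199555, with capitals on matches to GAAA, any 2 bases and GAAA, the core of the interferon-stimulated response element, or TTCNNNGAA, the core of the gamma-activated site, on either strand.
Gbp7: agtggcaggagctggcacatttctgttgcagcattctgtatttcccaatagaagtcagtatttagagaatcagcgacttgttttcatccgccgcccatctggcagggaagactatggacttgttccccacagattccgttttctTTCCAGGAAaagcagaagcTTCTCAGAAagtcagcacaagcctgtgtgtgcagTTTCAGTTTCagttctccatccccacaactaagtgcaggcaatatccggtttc
Ifi208: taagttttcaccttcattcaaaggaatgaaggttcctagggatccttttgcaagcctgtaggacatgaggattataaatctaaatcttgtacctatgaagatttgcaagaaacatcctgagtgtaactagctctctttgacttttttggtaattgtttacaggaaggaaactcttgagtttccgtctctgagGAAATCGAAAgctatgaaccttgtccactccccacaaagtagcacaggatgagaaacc
Igtp: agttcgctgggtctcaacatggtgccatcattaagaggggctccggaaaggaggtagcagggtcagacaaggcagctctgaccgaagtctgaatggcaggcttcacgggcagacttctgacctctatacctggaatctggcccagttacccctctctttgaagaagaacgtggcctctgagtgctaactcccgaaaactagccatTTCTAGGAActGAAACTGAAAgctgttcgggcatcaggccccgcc
The response element core was found in 10 of the 18 interferon response genes with a promoter in the table, and in 3.46% of all 27025 genes of the table (2.98% of 32851 windows of this length). TTCNNNGAA was found in 5 of 18 and in 8.13% of all genes (7.02% of windows). All 3 windows shown held that core, and those of Gbp7 and Igtp also held TTCNNNGAA. A match is a description of the letters and not a binding site. Gbp7 and Ifi208 were called in different comparisons.

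In the interferon response list, 21 of 22 tested genes had a positive fold change for p21mTertCD minus p21Het, with a median log2 fold change of 0.87 against -0.01 over all genes tested. Of the 22, 16 had p21mTertCD and p21Het libraries that did not overlap, against 16.6% of all genes tested. Gbp7 alone passed the adjusted threshold among them in edgeR, while those that DESeq2 called included Gbp2, Gbp4 and Igtp. For p21mTert minus p21mTertCD, 21 of 22 were below 0 (median -0.70, against 0.00 over all genes), and 9 did not overlap, against 12.1% of all genes. Igtp was at 243 and 76.2 CPM in p21mTertCD, 36.6, 36.3 and 20.6 in p21Het and 19.9 to 51.8 in p21mTert. Gbp4, another GTPase gene, was at 416 and 133 CPM in p21mTertCD and 93.7, 62.4 and 86.9 CPM in p21Het. In both of these genes p21mTertCD_1 stood well above p21mTertCD_2. Of the antigen presentation genes, B2m was at 3491 and 2305 CPM against 1246, 1951 and 1763, H2-D1 at 3059 and 2553 against 1777, 2053 and 2047, H2-K1 at 2913 and 2023 against 1774, 1806 and 1637, and Ifitm3, an antiviral membrane protein gene, at 2416 and 2109 against 1820.0, 1755 and 2294 CPM. p21mTertCD_1 was the highest of the 11 libraries for 18 of the 22 genes. p21mTertCD_2 exceeded every p21Het library for 17. The shares of all genes tested with these orders were not computed, so both counts describe the list alone. Ifi208 was the exception in sign, with a log2 fold change of -0.89. The same library, p21mTertCD_1, had the highest smooth muscle and lymphatic markers, the part of which in these values was not tested. In cells with a Gja5 or Bmx UMI against Gja4 alone, Gbp7 had a median log2 ratio of -0.86 (lower in 9 of 11 libraries). The ratio was -0.77 for Igtp (lower in 10), -0.58 for Gbp4 (in 11) and -0.21 for Gbp2 (in 9). Ifi204 (0.65) went the other way in 10. The part of these subsets in the group values was not tested.

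**Figure D5:**
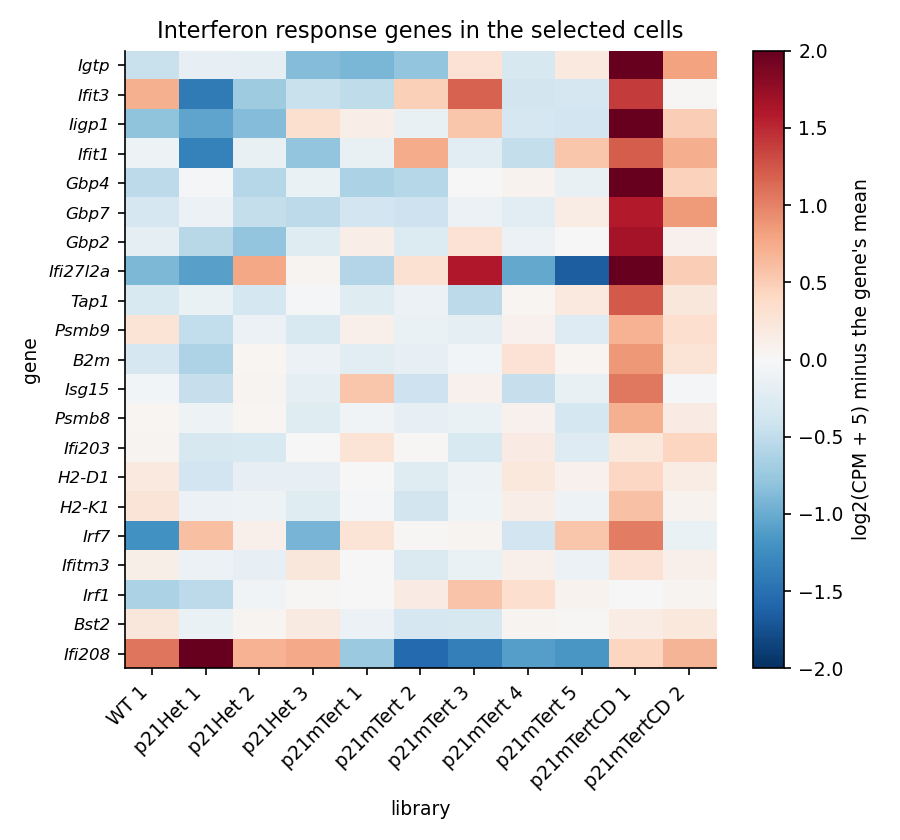
Heat map of 21 of the 22 interferon response genes tested (rows, ordered by the log2 fold change of p21mTertCD minus p21Het) in the selected cells of 11 libraries (columns), as log2(CPM + 5) minus the gene's mean, red above and blue below it. p21mTertCD_1 is the reddest column, p21mTertCD_2 is paler, and the bottom row, Ifi208, is blue in the 5 p21mTert columns.

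Beyond Gbp7, the genes of smallest p with a positive fold change for p21mTertCD minus p21Het did not pass the threshold. Of them Gbp4 alone was among the 23 genes of the interferon response list, which does not hold every interferon-induced gene. The genes of smallest p were Wars, a tryptophanyl-tRNA synthetase gene (log2 fold change 1.81, adjusted p = 0.224 in edgeR), Ifi47 (1.39, adjusted p = 0.224), Gm4951 (1.34), Ciita, the master regulator of class II antigen presentation (1.79), and Gbp4 (1.84). Wars was at 489 and 205 CPM in p21mTertCD and 86.9, 113 and 101 CPM in p21Het, and Ciita at 168 and 74.7 against 29.7, 38.6 and 32.0 CPM. On the lower side the smallest p belonged to the epithelial genes Wfdc2 (-2.85), Scgb1a1 (-3.93), Hp (-4.11), Sftpb (-2.13) and Cbr2 (-3.72), with adjusted p from 0.375 to 0.453. Scgb1a1 and Wfdc2 were the genes given above as high in p21Het_1 and p21Het_2. Without p21Het_3, 10 genes were called, 9 of them lower in p21mTertCD and Gbp7 higher. At an unadjusted p under 0.05 stood 396 genes.

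Between p21mTert and p21mTertCD, 590 genes had an unadjusted p under 0.05. Lower in p21mTert without passing the threshold were Nrp2, a neuropilin receptor gene for VEGF-C and semaphorins (-1.48, adjusted p = 0.066 in edgeR), Ifi47 (-1.36, adjusted p = 0.066), the muscle gene Mustn1 (-1.74), the smooth muscle myosin gene Myh11 (-4.15) and Wars (-1.55). Nrp2 was at 36.9, 32.5, 52.8, 49.8 and 66.2 CPM in p21mTert, 132 and 130.4 in p21mTertCD and 59.4, 79.4 and 96.0 in p21Het. Both p21mTertCD libraries lay above all others. Nrp2 was at 182 CPM on average in the venous comparator and 71.4 CPM in the selected cells. Lymphatic markers were also highest in p21mTertCD_1, and the Slc6a2 cluster had one of its highest shares in p21mTertCD_2, as given above, and their part in Nrp2 was not tested. Myh11 was at 73.0 and 17.6 CPM in p21mTertCD and at most 4.98 CPM in p21mTert, beside the smooth muscle markers of p21mTertCD_1 given above. Higher in p21mTert were Fam3c (0.90, adjusted p = 0.211), the translation factor gene Denr (0.99), the splicing factor gene Srsf2 (0.74), the stress-response phosphatase subunit gene Ppp1r15a (1.10) and Plat, which encodes tissue plasminogen activator (0.92). Plat was at 403, 601, 471, 403 and 512 CPM in p21mTert, 286 and 208 in p21mTertCD and 354, 251 and 318 in p21Het. None of these 5 was called in edgeR, and DESeq2 called Fam3c and Ppp1r15a.

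Genes of arterial identity and signalling gave no call in edgeR over the 10 libraries. Of 19 arterial specification genes, all tested, 12 had a positive fold change for p21mTert minus p21Het (median log2 fold change 0.06, against -0.01 over all genes), and the smallest adjusted p was 0.75. The transcription factor gene Epas1 was at 2403 to 2991 CPM over the 11 libraries, the chemokine gene Cxcl12 at 1083 to 1916, Efnb2 at 327 to 883 and the VEGF co-receptor gene Nrp1 at 375 to 736. Hey2 and Sox17 are named after their values were seen. Hey2, a Notch target, was at 54.0, 18.8, 23.5, 13.3 and 30.9 CPM in p21mTert, 11.4, 10.2 and 4.57 in p21Het and 8.11 and 7.33 in p21mTertCD, and its adjusted p was 0.75 in edgeR. Sox17 was at 269.8, 259.6, 266, 262 and 291 CPM in p21mTert, 194, 230.2 and 181 in p21Het and 168 and 215 in p21mTertCD, with an adjusted p of 0.949. In both, the 5 p21mTert libraries lay above the p21Het and p21mTertCD libraries without passing the test. Over the list, 3 of 19 genes had p21mTert and p21Het libraries that did not overlap (3.1% of all genes tested), and 4 of 19 for p21mTert and p21mTertCD (12.1% of all). In the Notch pathway, 14 of 16 genes were tested, among them the receptors Notch1 (285 to 542 CPM) and Notch4 (80.6 to 165 CPM), the target Hes1 (209 to 407 CPM) and the target Hey1 (100.5 to 210.2 CPM). 9 of them were positive for p21mTert minus p21Het (median 0.07). Of the BMP and ALK1 pathway, the signalling route mutated in hereditary pulmonary hypertension and telangiectasia, 14 of 17 genes were tested and 10 were positive (median 0.06). Its receptors Bmpr2 (1174 to 1687 CPM), Acvrl1 (705 to 1121 CPM) and Eng (833 to 1736 CPM), and Tmem100 downstream of them (1109 to 1804 CPM), were present in every library. In VEGF and angiopoietin signalling, 12 of 13 genes were tested, 4 were positive, and Nrp2 above had the smallest adjusted p for p21mTert minus p21mTertCD. DESeq2 called Nrp2 in that comparison, as did edgeR with the set of libraries as a covariate, with the replicate block, with the 2 groups alone, without marked doublets and without p21Het_1. Its most abundant members were Flt1 (698 to 1207 CPM), Nrp1, Tek (372 to 585 CPM) and Vegfa (334 to 641 CPM).

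The wall and tone lists likewise held no gene called in edgeR over the 10 libraries. Of 24 tested genes of the elastic lamina and basement membrane, 14 were negative for p21mTert minus p21Het (median log2 fold change -0.16). Mgp was at 1600.5, 3329 and 2076 CPM in p21Het, 2425, 2251, 2655, 2250.3 and 2061 CPM in p21mTert and 1389 and 1826 CPM in p21mTertCD, with overlapping p21Het and p21mTert libraries. Ltbp4 ranged from 413 to 744 CPM, Col4a1, a basement membrane collagen gene, from 299.5 to 735, and Eln from 242 to 460.5. Of 17 genes of vascular tone, 10 were negative (median -0.12), with Calcrl, the receptor gene for adrenomedullin, at 1548 to 2135 CPM, its partner Ramp2 at 1274 to 2192, the angiotensin-converting enzyme gene Ace at 1282 to 1916 and the endothelin gene Edn1 at 473 to 1118 CPM. Of 15 flow-responsive genes, 8 were positive (median 0.06). This list includes the rule genes Gja4 and Gja5, which chose the cells, so its count and median are a description only. The shear-stress factor gene Klf2 was at 1284 to 4345 CPM, Klf4 at 770.2 to 2229, Pecam1 at 1151 to 1548 and the thrombomodulin gene Thbd at 805 to 1394. For haemostasis, 8 of 11 genes were negative (median -0.22), with Vwf, the von Willebrand factor gene, at 2168, 1853 and 2646 CPM in p21Het and 2085, 1327, 1473, 1437 and 2096 CPM in p21mTert. Leukocyte adhesion genes split into 5 positive and 7 negative of 12. Among them were Icam2 (519 to 833 CPM), Podxl (507 to 748 CPM) and Esam (443 to 636 CPM). The E-selectin gene Sele ranged from 5.68 to 343 CPM, with p21Het_2 highest.

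Lists tied to p21, senescence and telomeres also gave no call in that fit. Of 18 tested p53 targets, 10 were positive for p21mTert minus p21Het (median log2 fold change 0.06), with Btg2 at 462 to 1264 CPM, the death receptor gene Fas at 222 to 305 and Plk2 at 91.5 to 350.4. Of 14 tested senescence-associated factors of 22 listed, 10 were negative (median -0.11). Igfbp4 ranged from 335 to 741 CPM, Timp2 from 281 to 403, Ctgf from 89.2 to 433 and Tgfb1 from 94.6 to 168. For p21mTert minus p21mTertCD, 8 of 14 were positive (median 0.39), and the smallest adjusted p was 0.634. Of the telomerase and telomere genes 8 of 14 were tested, with 3 positive and 5 negative (median -0.04). Nop10, a telomerase holoenzyme subunit gene, was at 83.8 to 141 CPM and Dkc1 (dyskerin) at 21.5 to 82.4 CPM. Immediate early and heat shock genes, which also respond to tissue dissociation, were mostly positive without a call. For p21mTert minus p21Het 14 of 16 were positive (median 0.42), and for p21mTert minus p21mTertCD 14 of 16 (median 0.44), with adjusted p of at least 0.872 and 0.695. Jun was at 3311, 3345 and 2115 CPM in p21Het, 4473, 3077, 4689, 3260.0 and 3881 CPM in p21mTert and 2124 and 4231 CPM in p21mTertCD. p21Het_3 and p21mTertCD_1 were the 2 low libraries for Jun. The same held for Fos at 1301 and 1313 CPM, against 2231 to 4041 CPM in the other 9.

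Whether p21mTert minus p21Het differed between the selected cells and the capillary comparator was tested in a joint edgeR fit with an interaction term and library as a block. Of 8636 genes, 11 passed an adjusted p of 0.05 (0.127%), 5 with a more positive and 6 with a more negative effect in the selected cells. The immunoglobulin genes Iglc3, with a log2 difference of effects of 8.05 (SE 1.12, adjusted p = 0.00172) in edgeR, and Jchain, with 6.68 (SE 1.00, adjusted p = 0.00242), led the first group. The 6 cells of the cluster led by Cd79a, all marked as doublets, came from the 5 p21mTert libraries. Without marked barcodes, or without any 1 of p21mTert_1 to p21mTert_4, Iglc3 was not called, nor was it without p21Het_1 or p21Het_2. Jchain was not called without p21mTert_3 or without p21Het_1. Neither was called with the venous comparator or with the cells that had a Gja5 or Bmx UMI alone. The part of B cells in these values was not tested. Jchain was at 11.4, 4.19, 940.1, 16.6 and 4.41 CPM in the selected cells of p21mTert, where 1 library carried the level, and at 1477, 63.3 and 10.7 CPM in the comparator of p21Het, where p21Het_1 did. The secretoglobin genes Scgb1a1, at -2.88 (SE 0.47, adjusted p = 0.00562), and Scgb3a2, at -2.72 (SE 0.46, adjusted p = 0.00632), and the club cell cytochrome gene Cyp2f2, at -3.06 (SE 0.51, adjusted p = 0.00597), led the second. None of these 3 was called without p21Het_2, without p21mTert_2 or with members of 3 or more rule UMIs, and Scgb1a1 and Cyp2f2 were also not called without p21Het_1 or in the libraries with replicate labels alone. Scgb1a1 was at 23326, 9498 and 830.1 CPM in the selected cells of p21Het and 2893, 1288 and 1225 CPM in the comparator of the same libraries. Tinagl1, a basement membrane protein gene named after its values were seen, was also among the 11, at 0.83 (SE 0.16, adjusted p = 0.0221). It was not called without p21Het_1, p21Het_2, p21mTert_2, p21mTert_4 or p21mTert_5, with members of 3 or more rule UMIs, with the venous comparator, or with the cells that had a Gja5 or Bmx UMI alone. Without p21Het_1 or without p21mTert_2 the count was 1, without p21Het_2 it was 2, and without p21Het_3 it was 22. Iglc3 and its neighbour Iglc2 are near-identical copies, and their levels are uncertain.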

How the data were processed

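The members, gene lists and tests were chosen with earlier results of these data known. The deposited matrices hold raw UMI counts for 31053 genes per barcode, mapped to mm10 with Cell Ranger per the labels, whose version (2.3) differs from that in the file headers (3.1.0). The cell filters of the design text were applied here, since the deposited counts hold barcodes outside them. UMIs of the members were summed per library and tested over 10 libraries with edgeR 4.0.16 (R 4.3.3; filterByExpr, TMM, quasi-likelihood, Benjamini-Hochberg adjustment, WT left out), tested on simulated data with known changes first. Summed counts of 339878 to 1204282 UMIs per library leave genes below about 20 CPM imprecise. An endothelial barcode had no Ptprc UMI, at least 1 UMI of Cldn5 and Cdh5, at least 1 of Pecam1 and Egfl7, and at least 3 of the 4, or was a member. Doublets marked by Scrublet (scanpy 1.11.5), whose own thresholds marked under 0.5% in 3 libraries, were the top scores at 0.8% per 1000 barcodes and were kept. Clusters used 1500 variable genes, 15 components, 15 neighbours and leidenalg 0.10.2 at resolution 0.3. Named genes were the 20 highest and 10 lowest ratios to the comparator (50 CPM or more, rule and comparator genes left out), up to 10 called per direction or else the 5 of smallest p (20 CPM or more), up to 5 called interactions, and the 4 most abundant of each list. Some of these genes are not reported here. DESeq2 1.42.0 and the other alternatives are in the closing section.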

Additional observations from a re-analysis of the deposited data

Results flagged for a closer look

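In p21mTert, the group of 5 libraries, 1 library stood far from the others for 2 of 42 values examined with Dixon's test, which flags about 1 in 20 by chance. Jchain was highest in p21mTert_3 at 940.1 CPM, and Fam3c was highest in p21mTert_1 at 449 CPM.

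The difference of p21mTert minus p21Het was unlike in the selected cells and the capillary comparator for 5 named genes by the interaction test, each of which lost its call under some alternatives, such as leaving out 1 library. The log2 difference of effects was 8.05 for Iglc3, 6.68 for Jchain, -2.88 for Scgb1a1, -3.06 for Cyp2f2 and -2.72 for Scgb3a2. Scgb1a1, Cyp2f2 and Scgb3a2 are club cell genes, and the part of free RNA from those cells was not tested.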

How the results depend on the processing

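Each count of called genes is given for p21mTert against p21Het, then against p21mTertCD, then for p21mTertCD against p21Het, and was 1, 1 and 1. They were 131, 156 and 103 without a filter on low counts, 4, 13 and 13 in DESeq2, 3, 4 and 0 with the set of libraries as a covariate, 2, 0 and 0 in the libraries with replicate labels, and 0, 0 and 0 with 3 or more rule UMIs. Chosen after seeing the data, members with a Gja5 or Bmx UMI only gave 0, 0 and 0, and leaving out p21Het_2 and p21mTertCD_1 gave 1, 0 and 0. With only the compared groups in the fit the counts were 1, 4 and 0, and without marked doublets 1, 4 and 1. Leaving out 1 library at a time gave 1 to 15, 0 to 34 and 0 to 25 genes. With the replicate block the counts were 0, 4 and 0. Whether the numbers pair the libraries could not be decided. In their deviations from the group means, same-numbered p21Het and p21mTert libraries correlated at 0.31, 0.21 and 0.01. Differently numbered ones correlated at -0.34 to 0.33. The 2 p21mTertCD libraries deviate from their mean by equal and opposite amounts, so their pairs cannot tell. The interaction count of 11 was 58 without a filter, 3 in the libraries with replicate labels, 7 with 3 or more rule UMIs, and 1 to 22 leaving out 1 library.

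For the share of endothelial barcodes, leaving out 1 library gave differences of 0.275 to 4.60, -2.77 to 0.427 and 1.45 to 5.77 percentage points. The sign turned with the replicate block for the first (-0.289), and with all passing barcodes as denominator (0.752) or without p21mTertCD_2 (0.427) for the second, and none passed a threshold. For Cdkn1a, p21mTert minus p21Het turned to -0.083 in the libraries with replicate labels and -0.17 without p21Het_1 (leaving out 1 library, -0.17 to 0.39), and p21mTertCD minus p21Het to 0.14 with Gja5 or Bmx cells only. Ifi208 passed its threshold in 19 of the 21 alternatives that gave it a value (it was filtered out with Gja5 or Bmx cells only), and Gbp7 in 11 of 22 for p21mTert minus p21mTertCD and 7 of 22 for p21mTertCD minus p21Het. The causes were not tested.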
